A study of Mus musculus with 11 samples.

Results

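Mouse chromosome 11 carries many genes that nearly every cell uses, and 56 of them were followed here through pluripotent cells in which the signals of that chromosome were raised. The 56 genes encode proteasome subunits, the transcription machinery, chromatin regulators, RNA processing factors, translation factors and ribosomal proteins, signalling proteins, replication and cell cycle proteins, and proteins of transport, membranes and the cytoskeleton. They were chosen by name as broadly expressed genes of a chromosome already seen to be higher in one group and in one further array, so every difference of theirs between these arrays is a description and carries no test. Of the 56 genes, 50 had a probe set that named them alone, among 18193 genes measured in this way. Rpl26, Rpl23, Sumo2 and Supt4a had only probe sets shared with other gene symbols, and Ncor1 and Rps6kb1 are unnamed here.

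Total RNA from 11 samples of mouse cells was hybridised to Affymetrix 430 2.0 arrays, and the values are log2 probe-set signals. The pluripotent groups, with 3 arrays each, were ViPSCs (induced pluripotent cells reprogrammed from ventricular myocytes), TiPSCs (their counterparts from tail tip fibroblasts) and mESCs (embryonic stem cells that the labels call genetically matched). Ventricular cardiomyocytes (VM) and tail tip fibroblasts (TTF) of pups at postnatal day 1, with 1 array each, were the source cells. All samples had the same mixed background of C57/Bl and BlackSwiss mice. The pluripotent cells were kept undifferentiated with LIF on irradiated embryonic feeder fibroblasts, which were removed by letting them attach before RNA was taken. No label states that replicate arrays came from separate clones or cultures, so p-values measure only the spread between these samples, which may be technical.

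A cell with an additional copy of a chromosome usually makes more RNA from most genes on it, roughly in proportion to the copies, while the proteins of multi-subunit complexes are often trimmed back by degradation of unassembled subunits. Cultured mouse pluripotent cells are known for gaining whole chromosomes, with 8 and 11 among those seen most often. DNA copy number was not analysed here, so the values below are RNA signals alone. In bulk RNA, fewer cells with a raised signal and a smaller rise in each cell cannot be told apart.

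The chromosome stood apart as its choice implies. Over its 644 genes with a mean log2 signal of at least 7, the median deviation from the mean of the 9 pluripotent arrays was 0.26, 0.28 and 0.27 in the 3 ViPSCs arrays. It was -0.15, -0.18 and -0.18 in TiPSCs, and -0.15, -0.26 and 0.13 in mESCs rep1, rep2 and rep3. The other autosomes except 8 had medians between -0.04 and 0.03 in ViPSCs and between -0.14 and -0.01 in mESCs rep3, so that array was raised on chromosome 11 from a baseline below 0. Other chromosomes also departed in single arrays, namely 8 in TiPSCs rep3 (median 0.47) and X in mESCs rep2 and rep3 (0.59 in both). Pluripotency markers had a list median between 12.14 and 12.75 in the 9 arrays, against 3.95 in TTF and 4.09 in VM. The 8 cardiomyocyte markers had list medians of 3.85 to 4.16 in the 9 arrays against 14.25 in VM. The 7 measured fibroblast and feeder markers had list medians of 6.08 to 6.31 in ViPSCs, 6.21 to 7.10 in TiPSCs and 6.20 to 6.40 in mESCs, against 13.85 in TTF. Of the 3 measured blood markers Ptprc was between 3.44 and 3.82 in all 9 arrays, while the list median was 6.30 to 7.19 in ViPSCs, 4.75 to 5.72 in TiPSCs and 5.40 to 5.96 in mESCs. That median was the value of Csf1r in each of the 9 arrays. The remaining marker, Cd68, itself lies on chromosome 11 and differed by 1.37 between ViPSCs and TiPSCs. The part of feeder or blood cells in the member values was not tested.

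Upstream sequences are shown for 4 of the 5 proteasome members, whose differences had the narrowest range of the 8 roles, and for the members with the 3 largest and the 3 smallest differences between ViPSCs and TiPSCs among those with a mean signal of at least 7. Each is the 100 bases before the RefSeq start (build GRCm38.p6), 5′ to 3′ on the gene's strand. Capitals mark the letters of the GC box (spelled GGGCGG), the CCAAT box (spelled as its name), the ETS site (spelled CCGGAAG) or the TATA box (spelled TATAAA) on either strand.
Psmb6 (chr11:70525257-70525356, plus strand): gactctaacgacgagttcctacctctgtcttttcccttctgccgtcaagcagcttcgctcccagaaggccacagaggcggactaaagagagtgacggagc
Psmc5 (chr11:106256085-106256184, plus strand): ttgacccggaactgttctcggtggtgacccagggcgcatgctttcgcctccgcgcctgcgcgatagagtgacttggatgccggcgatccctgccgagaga
Psmd11 (chr11:80428515-80428614, plus strand): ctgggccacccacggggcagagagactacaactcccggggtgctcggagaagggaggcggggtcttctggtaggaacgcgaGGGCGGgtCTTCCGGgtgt
Psmd12 (chr11:107479428-107479527, plus strand): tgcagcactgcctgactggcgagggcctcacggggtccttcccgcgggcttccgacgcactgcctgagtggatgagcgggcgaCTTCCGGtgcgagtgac
Cdk12 (chr11:98203205-98203304, plus strand): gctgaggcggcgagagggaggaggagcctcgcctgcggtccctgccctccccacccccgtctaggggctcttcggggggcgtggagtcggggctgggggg
Supt6 (chr11:78245704-78245803, minus strand): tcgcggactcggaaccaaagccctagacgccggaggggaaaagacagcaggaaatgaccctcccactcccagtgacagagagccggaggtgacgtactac
Taok1 (chr11:77607816-77607915, minus strand): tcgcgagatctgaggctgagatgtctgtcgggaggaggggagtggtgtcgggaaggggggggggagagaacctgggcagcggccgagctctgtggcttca
Eif5a (chr11:69921959-69922058, minus strand): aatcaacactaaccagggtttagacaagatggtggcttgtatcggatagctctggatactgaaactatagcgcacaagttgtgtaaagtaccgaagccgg
Crk (chr11:75679159-75679258, plus strand): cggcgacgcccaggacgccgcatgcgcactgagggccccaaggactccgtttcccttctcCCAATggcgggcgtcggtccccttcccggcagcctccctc
Srsf1 (chr11:88047273-88047372, plus strand): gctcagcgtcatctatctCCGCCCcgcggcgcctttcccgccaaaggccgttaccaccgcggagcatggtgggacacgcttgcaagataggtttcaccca

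Of the 50 measured members, 46 had a RefSeq promoter in the table, and 11 of these had more than 1 listed start, of which the first was used. Eif5a had 6 listed starts. In the 250 bases before the start, the GC box letters were found in 29 of 46 members (63%), against 32.9% of the promoters of 27025 genes and 38% of 1865 promoters of chromosome 11. The CCAAT letters were found in 19 members (41.3%, against 34.5% of all promoters), the ETS letters in 8 (17.4%, against 7.05%) and the TATA letters in 3 (6.52%, against 13%). The median GC content of this window was 60.4% in members and 52% in all promoters, and the median number of CpG pairs was 18.5 and 6. These windows are rich in GC, as promoters of broadly used genes commonly are. Among the sequences shown, GC box letters lay within 250 bases of the start in Cdk12 and Taok1, which differed most between ViPSCs and TiPSCs, and also in Crk and Srsf1, which differed least. They were not in that window of Supt6, among the largest, or Eif5a, among the smallest.

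Across the 50 measured members, ViPSCs signals lay above TiPSCs signals in 48 of 50 genes. The median deviation from the 9-array mean was 0.19, 0.20 and 0.18 in the 3 ViPSCs arrays, with 48, 48 and 47 members above 0. It was -0.12, -0.15 and -0.11 in TiPSCs, with 5, 4 and 14 members above 0. The median difference of group means was 0.33 on the log2 scale, which is 1.26-fold, with a range from -0.20 to 0.74. The difference was above 0 in 48 of 50 members, and in 45 all 3 ViPSCs arrays lay above all 3 TiPSCs arrays, a pattern found in 14.4% of all genes. In the limma fit over all genes, 8 members were called higher, against 3.2% of all genes. These were Psmd11, Supt6, Cdk12, Med1, Smarce1, Kat2a, Grb2 and Taok1. The rule used this contrast, so nothing is read from these counts. The number called was 1 to 2 when any ViPSCs array was left out, against 1.14% to 1.32% of all genes called in either direction. Without mESCs rep3 it was 20 (40%), against 8.87% of all genes.

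**Figure D1:**
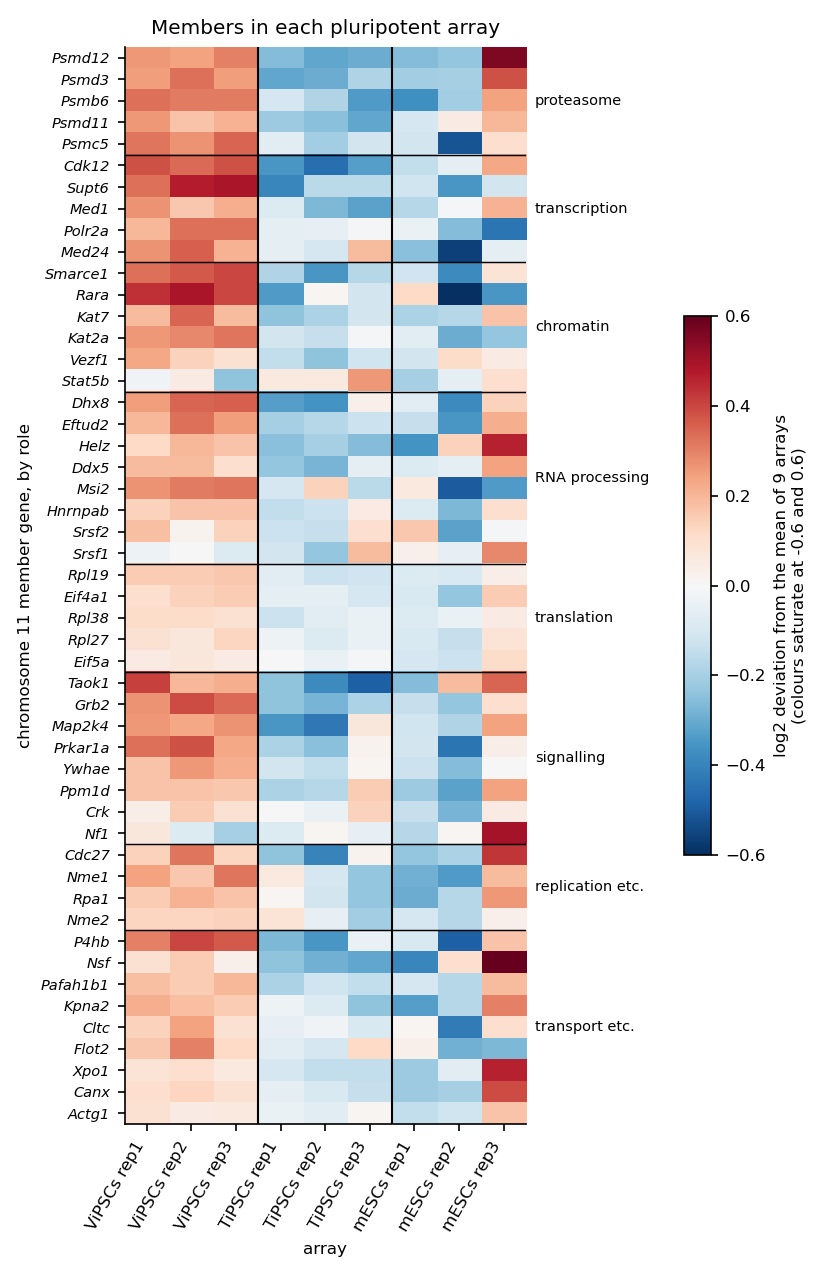
Log2 deviation of each of the 50 measured members (y axis, grouped by role) from its mean over the 9 pluripotent arrays (x axis), with red above and blue below that mean and colours saturating at -0.6 and 0.6. The ViPSCs columns and mESCs rep3 are mostly red, with medians of 0.19, 0.20, 0.18 and 0.16, and the other 5 columns mostly blue.

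The proteasome degrades proteins marked with ubiquitin and is built from a catalytic core and a regulatory particle. Its 5 members spanned a narrow range of ViPSCs minus TiPSCs differences, from 0.44 to 0.56 with a median of 0.52, which was the highest median of the 8 roles. Psmd12, a subunit of the lid of the regulatory particle, had log2 signals of 11.69, 11.66 and 11.73 in ViPSCs, 11.16, 11.11 and 11.12 in TiPSCs, and 11.17, 11.19 and 11.98 in mESCs. The ViPSCs arrays did not overlap with the TiPSCs arrays, and mESCs rep3 was the highest of the 9. The difference between ViPSCs and TiPSCs was 0.56 ± 0.19 (SE of the fit, 3 arrays per group), or 1.48-fold. Psmc5, an ATPase of the base of that particle, was at 12.10, 12.05 and 12.13 in ViPSCs, 11.71, 11.57 and 11.68 in TiPSCs, and 11.67, 11.27 and 11.88 in mESCs. Here the ViPSCs arrays were the 3 highest of the 9 and mESCs rep2 the lowest. Its difference was 0.44 ± 0.14, or 1.36-fold. The catalytic subunit Psmb6 (0.52) and the lid subunits Psmd3 (0.54) and Psmd11 (0.48) fell between these values. In mESCs rep3 all 5 were above both other mESCs arrays, by a median of 0.58 over rep1 and 0.58 over rep2.

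Transcription members comprised Polr2a, the largest subunit of RNA polymerase II, the elongation factor Supt6, the elongation kinase Cdk12, and the Mediator subunits Med1 and Med24. Their median ViPSCs minus TiPSCs difference was 0.45, from 0.27 to 0.74. Cdk12 signals were 9.32, 9.27 and 9.31 in ViPSCs, 8.58, 8.49 and 8.60 in TiPSCs, and 8.78, 8.87 and 9.16 in mESCs. All 3 ViPSCs arrays lay above the other 6, and all 3 TiPSCs arrays lay below the other 6. The difference was 0.74 ± 0.10, or 1.67-fold, the largest of the 50 members, and it was 0.87 when all 7 probe sets of the gene were averaged. Med24 was at 8.47, 8.56 and 8.42 in ViPSCs, 8.14, 8.10 and 8.39 in TiPSCs, and 7.95, 7.65 and 8.14 in mESCs. TiPSCs rep3 came close to the lowest ViPSCs array without overlapping it, and the difference was 0.27 ± 0.13. Med24 and Polr2a differed more from mESCs (0.57 ± 0.13 and 0.53 ± 0.11) than from TiPSCs (0.27 ± 0.13 and 0.32 ± 0.11). The difference between these differences was not tested.

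The chromatin and DNA-binding members had a median difference of 0.40 but the widest range, from -0.20 to 0.60. Smarce1, a subunit of BAF remodelling complexes, was at 10.50, 10.54 and 10.57 in ViPSCs, 9.94 ± 0.10 (SD, n = 3) in TiPSCs, and 10.05, 9.80 and 10.25 in mESCs. The ViPSCs arrays were the 3 highest, and the difference was 0.60 ± 0.12, or 1.51-fold. Another Smarce1 probe set with a mean of 8.35 gave 0.06, and the remaining one, at a low mean of 3.22, gave -0.12. The average of all 3 probe sets of the gene gave 0.18, so the size rests on the probe set. Stat5b, a transcription factor of cytokine signalling, was at 5.08, 5.16 and 4.86 in ViPSCs, 5.17, 5.16 and 5.36 in TiPSCs, and 4.90, 5.04 and 5.20 in mESCs. Its ViPSCs arrays lay below its TiPSCs arrays, but only just, since the closest 2 both round to 5.16. It was the 1 member with that order, which 19.1% of all genes showed, and both groups overlapped with mESCs. Its difference was -0.20 ± 0.11, and its mean of 5.10 was in the low part of the scale. In the source cells it was at 7.42 in TTF and 7.61 in VM. The retinoic acid receptor Rara, also of low signal with a mean of 6.69, differed by 0.59 ± 0.18 without overlap. The acetyltransferases Kat2a (0.38 ± 0.09) and Kat7 (0.42 ± 0.11) and the DNA-binding protein Vezf1 (0.33 ± 0.09) were also without overlap.

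RNA processing members had a median difference of 0.34, from 0.01 to 0.54. Dhx8, a helicase that releases the spliced RNA, was at 9.32, 9.42 and 9.43 in ViPSCs, 8.74, 8.71 and 9.10 in TiPSCs, and 8.96 ± 0.26 (SD, n = 3) in mESCs. No other array reached the ViPSCs arrays, and the difference was 0.54 ± 0.15. Srsf1, a splicing factor rich in serine and arginine, was at 12.37, 12.40 and 12.32 in ViPSCs, 12.29, 12.17 and 12.59 in TiPSCs, and 12.43, 12.35 and 12.69 in mESCs. The groups overlapped and TiPSCs rep3 was above every ViPSCs array. The difference was 0.01 ± 0.13, and all 7 probe sets of Srsf1 gave differences between -0.19 and 0.01. In mESCs rep3, by contrast, Srsf1 was 0.26 above rep1 and 0.34 above rep2. The related splicing factor Srsf2 differed by 0.17 ± 0.13 with overlapping groups, and Eftud2, a spliceosomal GTPase, by 0.43 ± 0.13 without overlap. The helicase Ddx5 (0.35 ± 0.11), the putative helicase Helz (0.40 ± 0.17) and the RNA-binding proteins Hnrnpab (0.24 ± 0.11) and Msi2 (0.34 ± 0.14) had no overlap between ViPSCs and TiPSCs.

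Translation members showed the smallest median, 0.19, with a range from 0.07 to 0.26. Rpl19, a protein of the large ribosomal subunit, was at 14.33, 14.33 and 14.34 in ViPSCs, 14.11, 14.04 and 14.05 in TiPSCs, and 14.10, 14.09 and 14.21 in mESCs. The ViPSCs arrays were the 3 highest, with a difference of 0.26 ± 0.07, or 1.20-fold. The translation factor Eif5a was at 14.08, 14.10 and 14.08 in ViPSCs, 14.03, 13.99 and 14.02 in TiPSCs, and 13.93, 13.90 and 14.14 in mESCs. ViPSCs lay above TiPSCs in every array, but by 0.07 ± 0.08, which is within 1 standard error, and mESCs rep3 was the highest array. The helicase Eif4a1 (0.20 ± 0.10) and the ribosomal proteins Rpl27 (0.15 ± 0.08) and Rpl38 (0.19 ± 0.07) were similar. All 5 measured translation members had mean signals above 13, near the top of the scale, which ended at 15.14.

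Signalling members had a median of 0.38. Taok1, a kinase upstream of stress-activated MAP kinases, was at 9.63, 9.42 and 9.45 in ViPSCs, 8.98, 8.85 and 8.73 in TiPSCs, and 8.97, 9.42 and 9.57 in mESCs. ViPSCs and TiPSCs did not overlap, whereas mESCs rep2 and rep3 reached the ViPSCs arrays. The difference from TiPSCs was 0.64 ± 0.15 and that from mESCs 0.18 ± 0.15. Another Taok1 probe set, with a mean of 9.09, gave 0.15 against TiPSCs, and one with a mean of 7.62 gave 0.94. Nf1, an inhibitor of Ras, was at 5.10, 4.95 and 4.83 in ViPSCs, 4.95, 5.04 and 4.99 in TiPSCs, and 4.86, 5.04 and 5.53 in mESCs. Its groups overlapped at a low signal, and its difference was -0.03 ± 0.16. The adaptor Crk was also near 0, at 0.06 ± 0.10 with overlapping groups, although its mean signal was 10.59. Other Crk probe sets gave 0.91 and 0.18, and those at low means of 3.14 and 4.17 gave 0.02 and 0.22. The average of all 5 gave 0.28, so this value rests on the probe set as well. Grb2, the adaptor that brings Sos proteins to receptors, differed by 0.57 ± 0.10, the kinase Map2k4 by 0.49 ± 0.15, the protein kinase A subunit Prkar1a by 0.46 ± 0.13, the adaptor Ywhae by 0.30 ± 0.09 and the phosphatase Ppm1d by 0.23 ± 0.15.

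The 4 measured members of nucleotide metabolism, replication and the cell cycle had a median of 0.31. Cdc27, a subunit of the anaphase-promoting complex, was at 9.77, 9.95 and 9.75 in ViPSCs, 9.39, 9.23 and 9.65 in TiPSCs, and 9.40, 9.44 and 10.06 in mESCs. ViPSCs lay above TiPSCs, by 0.40 ± 0.18, and mESCs rep3 above both. Nme2, a nucleoside diphosphate kinase, was at 14.02, 14.02 and 14.03 in ViPSCs, 13.98, 13.84 and 13.68 in TiPSCs, and 13.80, 13.73 and 13.92 in mESCs. The ViPSCs arrays were the 3 highest with an SD of 0.01, and the difference was 0.19 ± 0.09. Its neighbour and relative Nme1 differed by 0.33 ± 0.14, and Rpa1, which binds single-stranded DNA, by 0.29 ± 0.14. Nme1 and Nme2 are close in sequence, so their probe sets may share signal.

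The 9 members of transport, membranes, cytoskeleton and endoplasmic reticulum had a median of 0.21, and all 9 had ViPSCs above TiPSCs without overlap. P4hb, an enzyme that forms disulfide bonds in the endoplasmic reticulum, was at 12.40, 12.50 and 12.47 in ViPSCs, 11.83, 11.75 and 12.06 in TiPSCs, and 12.01, 11.61 and 12.27 in mESCs. The ViPSCs arrays were the 3 highest, with a difference of 0.57 ± 0.16. Actg1, cytoplasmic gamma actin, was at 14.24, 14.20 and 14.22 in ViPSCs, 14.11, 14.08 and 14.16 in TiPSCs, and 14.00, 14.04 and 14.33 in mESCs. Its difference of 0.10 ± 0.10 was no larger than its standard error, and mESCs rep3 was the highest array. The vesicle fusion ATPase Nsf differed by 0.37 ± 0.25, the nuclear transport proteins Kpna2 and Xpo1 by 0.30 ± 0.15 and 0.21 ± 0.15, the dynein regulator Pafah1b1 by 0.33 ± 0.10, and the chaperone Canx, the clathrin chain Cltc and the membrane protein Flot2 by 0.20 ± 0.15, 0.21 ± 0.13 and 0.21 ± 0.11.

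The ratio of 3 to 2 corresponds to 0.585 on the log2 scale and serves here only as a yardstick. It was reached by 5 of 50 members, namely Cdk12, Supt6, Taok1, Smarce1 and Rara. Just inside and just outside it were Rara at 0.59 and P4hb and Grb2 at 0.57. The members with a mean of at least 7 had a median difference of 0.33, the other 597 genes of chromosome 11 at that level 0.45, and the 6813 genes of other chromosomes at that level -0.06. In ViPSCs minus TiPSCs the members were thus below the rest of their chromosome, and this held in each range of probe-set signal. For mean signals of 9 to 11 the medians were 0.41 for 18 members and 0.49 for 248 other genes of the chromosome. From 11 to 13 they were 0.33 and 0.42 (15 and 66 genes), and from 13 to 16 they were 0.19 and 0.27 (9 and 6 genes). Among the 47 members with a mean of at least 7, the Spearman correlation of the difference with the mean signal was -0.55, across genes that share the same arrays. Log2 array signals are known to be compressed at both ends of their range, and the part of this in the order of the roles was not tested.

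**Figure D2:**
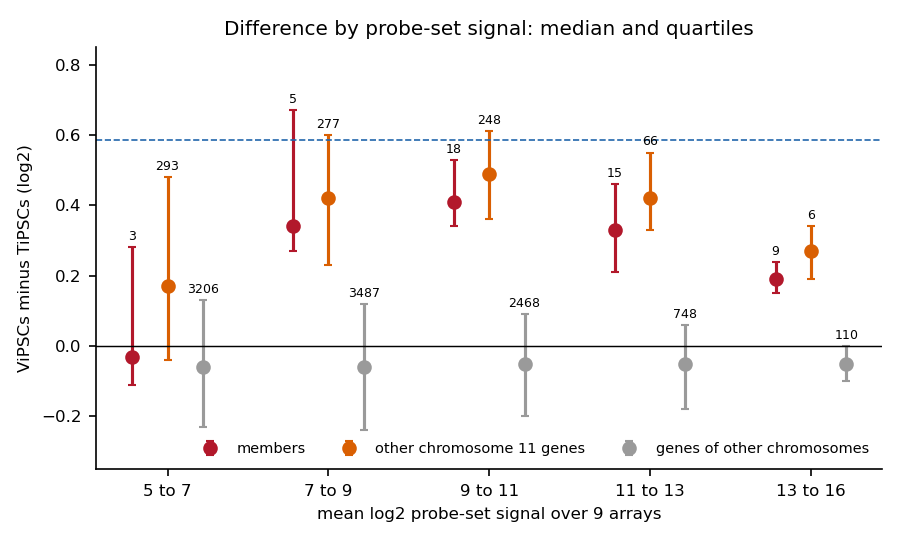
Median ViPSCs minus TiPSCs difference in log2 units (y axis; bars span the quartiles, small numbers give the genes in each set) by mean log2 probe-set signal (x axis), for members, other genes of chromosome 11 and genes of other chromosomes. The dashed line is the log2 of 3 to 2, 0.585. Members fall from 0.41 at signals of 9 to 11 to 0.19 at 13 to 16, below the other chromosome 11 genes in each range, while genes of other chromosomes stay at -0.06 or -0.05.

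The raised signal was not limited to a segment of the chromosome. When its 644 genes were split by order into 10 segments of 64 or 65 genes, the median ViPSCs minus TiPSCs difference was between 0.39 and 0.51 in each. Members lay in all segments but the first, with 9 of them in segment 7 and 10 in segment 9. In mESCs rep3 the median deviation was above 0 in every segment, lowest at 0.02 and 0.03 in segments 10 and 4 and highest at 0.22 in segment 2. Segment 10 holds Srsf2, Actg1 and P4hb, and segment 4 holds Map2k4, Eif4a1, Polr2a and Eif5a.

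**Figure D3:**
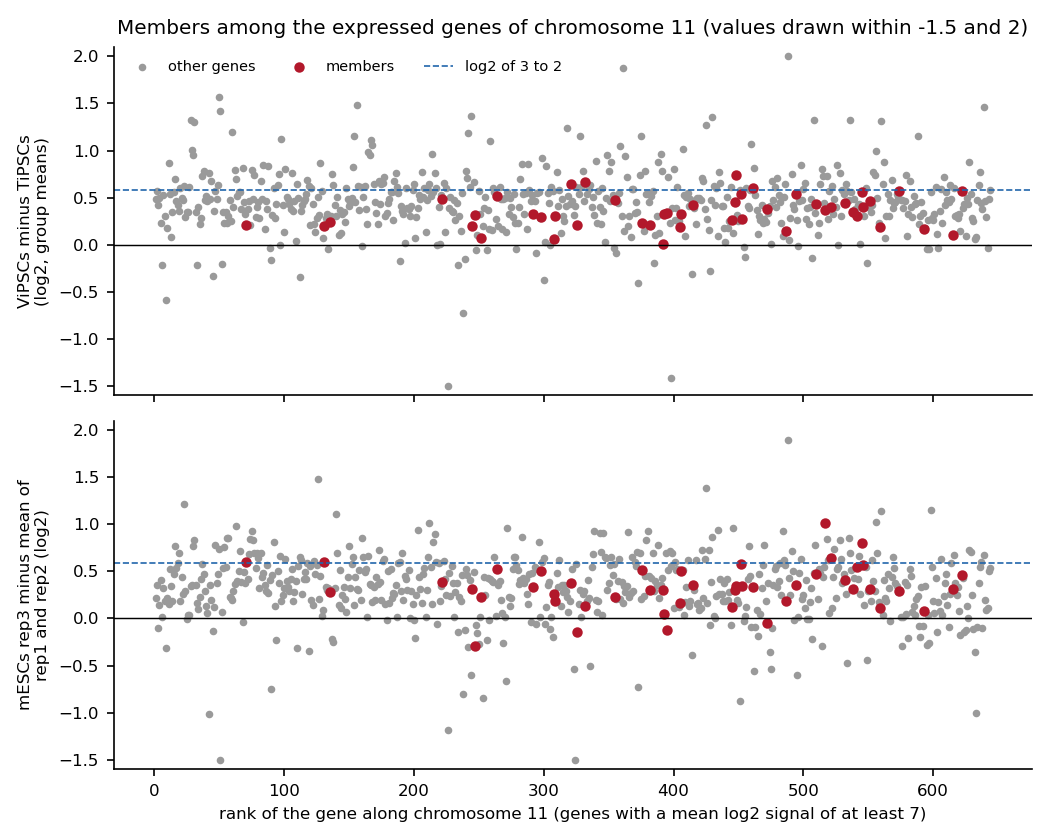
ViPSCs minus TiPSCs (top) and mESCs rep3 minus the mean of rep1 and rep2 (bottom), both in log2 units, for the 644 genes of chromosome 11 with a mean signal of at least 7, by rank along the chromosome. Members are red, the dashed line is the log2 of 3 to 2, and values beyond -1.5 or 2 are drawn at these limits. Most points lie above 0 along the whole length in both panels, with medians by segment of 0.39 to 0.51 in the upper one.

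Different probe sets of a member mostly gave the same sign. The 50 members had 158 probe sets, of which 100 had a mean of at least 7, and 91 of these had a ViPSCs minus TiPSCs difference above 0, with a median of 0.30. Of the 28 members with more than 1 such probe set, 23 had all of them above 0. The exceptions were Srsf1, Srsf2, Eif5a, Helz and Hnrnpab. Among the 58 probe sets with lower means, 39 were above 0 and the median was 0.15.

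Against mESCs the members' median difference in ViPSCs was 0.25, with 46 of 50 above 0. Polr2a, Supt6 and Kat2a were called higher, against 1.45% of all genes, and in 21 members all ViPSCs arrays lay above all mESCs arrays, against 11.3% of all genes. Nothing is read from these counts either, since the rule used this contrast. When any 1 ViPSCs array was left out 0 members were called, against 0.121% to 0.154% of all genes. Without mESCs rep3, 16 members (32%) were called, against 3.34% of all genes. The mESCs arrays varied most, with a median SD over 3 arrays of 0.23 per member, against 0.04 in ViPSCs and 0.09 in TiPSCs. In 21 members mESCs rep2 was the lowest of the 9 arrays, a count that was also not set against all genes. TiPSCs minus mESCs had a median of -0.06, and it was 0.07 without mESCs rep3, so its sign rested on that array. In that comparison 0 members were called by limma, against 0.632% of all genes, and 3 had an unadjusted p under 0.05. These comparisons share arrays with each other.

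In mESCs rep3, a single array, the members' median deviation from the 9-array mean was 0.16 with 41 of 50 above 0, against -0.12 and -0.20 in mESCs rep1 and rep2 with 6 above 0 in each. It lay above both other mESCs arrays in 43 of 50 members, against 35.6% of all genes, by a median of 0.26 over rep1 and 0.34 over rep2. At a mean signal of at least 7, its median deviation was 0.17 for members and 0.13 for the other 597 genes of chromosome 11. The median rise over rep1 was 0.26 and 0.27, and over rep2 0.35 and 0.40. It was above both in 87.2% and 74.5%. The members were thus not clearly below the rest of their chromosome in this array. Nsf stood out, at 9.66 in rep1, 10.14 in rep2 and 10.91 in rep3, with the ViPSCs arrays at 10.13, 10.20 and 10.07. Polr2a went the other way, at 10.08, 9.86 and 9.68 in mESCs rep1, rep2 and rep3, although its ViPSCs arrays were at 10.32, 10.45 and 10.45. Between rep1 and rep2 lay Kat2a, Rara, Vezf1, Msi2, Srsf2 and Flot2. All 8 signalling members, all 5 proteasome members, all 5 translation members and all 4 replication members were above both other arrays, but 3 of 6 chromatin members were.

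The ViPSCs and mESCs rep3 differences followed each other little from gene to gene. The Spearman correlation over the 50 members between ViPSCs minus TiPSCs and mESCs rep3 minus the mean of rep1 and rep2 was 0.22 and Pearson's r was 0.12, as a description across genes on different arrays. Both patterns at once, with ViPSCs above TiPSCs without overlap and mESCs rep3 above both other mESCs arrays, were found in 39 members and in 6.98% of all genes, a count that the rule bears on. The mESCs rep3 signal was above every ViPSCs array in 16 members, a count that was not set against all genes, so nothing is read from it. Nf1 and Stat5b, which were not higher in ViPSCs, were in mESCs rep3 0.58 and 0.23 above the mean of rep1 and rep2, at low signals. Over the same 50 members, the Spearman correlation with mean signal was -0.08 for the mESCs rep3 difference and -0.39 for ViPSCs minus TiPSCs, both as descriptions across genes.

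**Figure D4:**
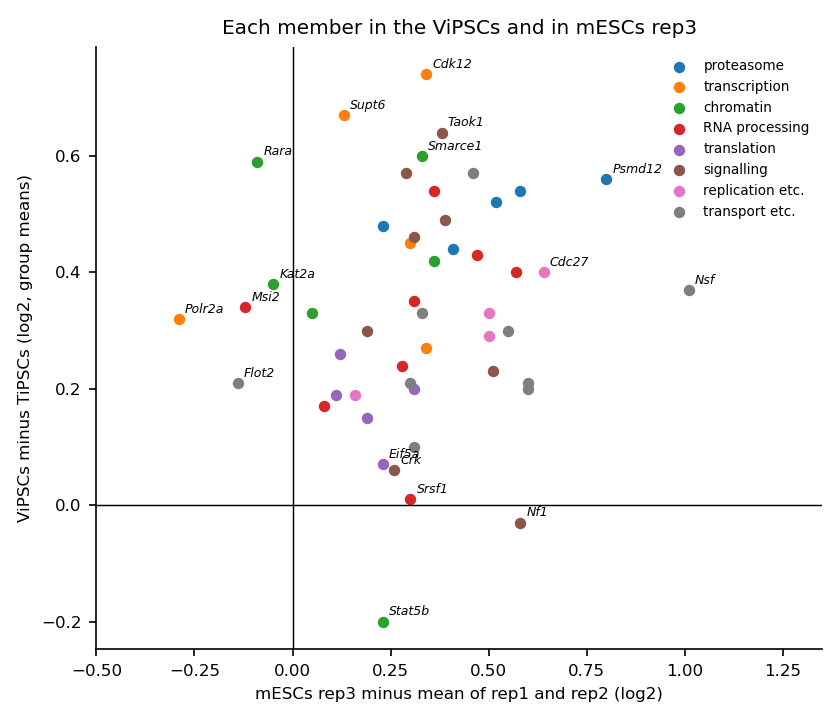
ViPSCs minus TiPSCs (y axis) against mESCs rep3 minus the mean of mESCs rep1 and rep2 (x axis), both in log2 units, 1 point per measured member coloured by role, with the outer members named. Polr2a, Rara, Kat2a, Msi2 and Flot2 lie left of 0, Nf1 and Stat5b lie below 0, and Nsf and Psmd12 lie farthest right at 1.01 and 0.80.

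Genes of the same complexes and pathways that lie on other chromosomes give a comparison that the choice of members did not use, though the lists were written with earlier results known. Of 332 such genes listed, 285 were measured, 264 of them on other chromosomes and 21 on chromosome 11. Of the 264, limma with Benjamini-Hochberg adjustment over all genes called 0 higher and 8 lower in ViPSCs than in TiPSCs, against 3.2% and 2.43% of all genes. At an unadjusted p under 0.05, 13 were higher and 31 lower, together 16.7% of the 264 against 21% of all genes. Their median difference was -0.05, close to the -0.03 of all genes. All ViPSCs arrays lay above all TiPSCs arrays in 30 of the 264 (11.4%, against 14.4% of all genes), and below them in 81 (30.7%, against 19.1% of all genes). These partners have high signals, with a median of 10.59. Genes of other chromosomes with a mean of at least 7 had shares of 16.6% above and 30% below, and a median difference of -0.06. The partners' share below was near that of these genes, whose median signal of 8.94 was lower than that of the partners. The 0 higher calls became 1 to 5 under some alternatives, with 5 when the 6 arrays were fitted alone. That fit called 1380 of 18193 genes higher. With arrays centred on autosomal genes off chromosome 11, 2 were called higher and 6 lower, against 678 and 346 of 18193 genes.

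A gap between members and partners on other chromosomes is implied by the choice of the members' chromosome, so it is a description only. By medians it was widest for the proteasome. Its 25 measured subunits on other chromosomes had a median ViPSCs minus TiPSCs difference of -0.03, with 9 above 0 and 0 called, against 0.52 for the 5 members. In mESCs rep3 these 25 were above rep1 by a median of 0.17 and above rep2 by 0.09, and 13 of them were above both. The 53 ribosomal proteins and translation factors had a median of -0.05 with 13 above 0, against 0.19 for the translation members. The 39 genes of RNA polymerase II, elongation and Mediator had a median of -0.05, the 34 chromatin regulators -0.10, the 33 spliceosome and RNA-binding genes -0.10, the 24 signalling partners 0.04, the 22 genes of replication, anaphase-promoting complex and SUMO -0.03, and the 34 genes of transport and the endoplasmic reticulum -0.08.

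Among partners on other chromosomes, Hnrnpd, an RNA-binding protein that speeds the decay of AU-rich messages, fell in ViPSCs. It was at 11.52, 11.71 and 11.56 in ViPSCs, 12.37, 12.29 and 12.35 in TiPSCs, and 12.19, 12.31 and 12.27 in mESCs, so ViPSCs were below all other arrays. Its difference from TiPSCs was -0.74 ± 0.08 (limma, adjusted p = 0.00227), and the call held in all 15 alternatives. Its difference from mESCs was -0.66 ± 0.08 (limma, adjusted p = 0.0103), which was -0.15 with an adjusted p of 0.481 when its probe sets were averaged. Msi1, the relative of the member Msi2, fell by 1.05 ± 0.18 from TiPSCs (limma, adjusted p = 0.0152), at signals of 4.48 to 6.09. With the mean of all probe sets it differed by -0.38, and it was not called when any ViPSCs array or TiPSCs rep1 was left out. The acetyltransferase gene Kat6a, on chromosome 8, fell by 0.91 ± 0.13 (limma, adjusted p = 0.00769). It was at 7.87, 7.95 and 7.92 in ViPSCs and 8.66, 8.69 and 9.13 in TiPSCs, highest in the array with the raised chromosome 8, and it was also called without that array. Its mean over all probe sets differed by only -0.15 (adjusted p = 0.48).

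Calr, a chaperone of the endoplasmic reticulum that works with Canx and also lies on chromosome 8, fell by 0.56 ± 0.11 (limma, adjusted p = 0.0248). The nuclear import factor Kpna4 fell by 0.44 ± 0.10 (adjusted p = 0.0339), and Sos1, the exchange factor that Grb2 recruits, by 0.47 ± 0.10 (adjusted p = 0.0247). None of these 3 calls held when a ViPSCs array or TiPSCs rep1 was left out, and those of Kpna4 and Sos1 also ended without TiPSCs rep3. Averaged over their probe sets, Sos1 was 0.10 higher in ViPSCs and Kpna4 differed by -0.13 (limma, adjusted p = 0.429), so neither call held. Srsf10 and Xpot were the other called genes. Against mESCs, 4 of the 264 were lower and 0 higher in ViPSCs by limma (against 0.693% and 1.45% of all genes), with 13 higher and 28 lower at an unadjusted p under 0.05, together 15.5% against 17.2% of all genes. The 4 were Hnrnpd, the splicing factor Srsf10 (-0.55 ± 0.10, adjusted p = 0.0363), the BAF subunit Arid1b (-0.62 ± 0.10, adjusted p = 0.0238) and the acetyltransferase Kat2b (-0.53 ± 0.11, adjusted p = 0.0498). Without mESCs rep1, 17 of the 264 were higher and 21 lower, together 14.4% against 13.8% of all genes. Of the named 4, the calls of Srsf10, Arid1b and Kat2b were lost without any 1 ViPSCs array or without mESCs rep2, and that of Srsf10 also without mESCs rep3, TiPSCs rep1 or TiPSCs rep2. With the mean of all probe sets, Srsf10 differed by -0.18 (adjusted p = 0.193) and Kat2b by -0.00 (adjusted p = 0.993), and both calls were lost. The call of Kat2b ended without any 1 TiPSCs array too, and that of Hnrnpd without ViPSCs rep1 or rep3. Between TiPSCs and mESCs 0 of the 264 were called by limma (against 0.632% of all genes). An unadjusted p under 0.05 was found for 43 or 16.3% (against 18.1% of all genes). In the fit without mESCs rep1 there were 34 calls (12.9%, against 16.7% of all genes).

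The partners on chromosome 11 were higher in ViPSCs, like the members. All 21 had a ViPSCs minus TiPSCs difference above 0, with a median of 0.42, and 9 (42.9%) were called higher, against 3.2% of all genes and 17.1% of all genes on the chromosome the rule had used. At a mean signal of at least 7, the share was 38.9% of 18 such partners and 31.4% of all 644 chromosome 11 genes. Psmb3, a proteasome core subunit, was at 12.55 in each of the 3 ViPSCs arrays, at 12.08, 12.05 and 11.97 in TiPSCs, and at 11.96, 11.99 and 12.39 in mESCs. Its pattern was that of the proteasome members, with a difference of 0.51 ± 0.11. The Mediator subunit Med31 differed by 0.70 ± 0.12, the BAF subunit Smarcd2 by 0.64 ± 0.10, Stat5a by 0.76 ± 0.14 and the core splicing factor Prpf8 by 0.55 ± 0.13. Anapc11 of the anaphase-promoting complex differed by 0.43 ± 0.09 (0.27 with the mean of its probe sets), the dynein regulator Ndel1 by 0.51 ± 0.09 and the collagen hydroxylase subunit P4ha2 by 0.61 ± 0.11. The call of Smarcd2 was lost without ViPSCs rep2, and those of the other named genes without any 1 ViPSCs array. Those of Psmb3 and Anapc11 were also lost without any 1 TiPSCs array. Psmb3 was called in 7 of 15 alternatives, and Stat5a and Psmb3 were not called with the mean of their probe sets. Stat5a and the member Stat5b are neighbours of like sequence that differed in opposite directions, both at low signals.

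**Figure D5:**
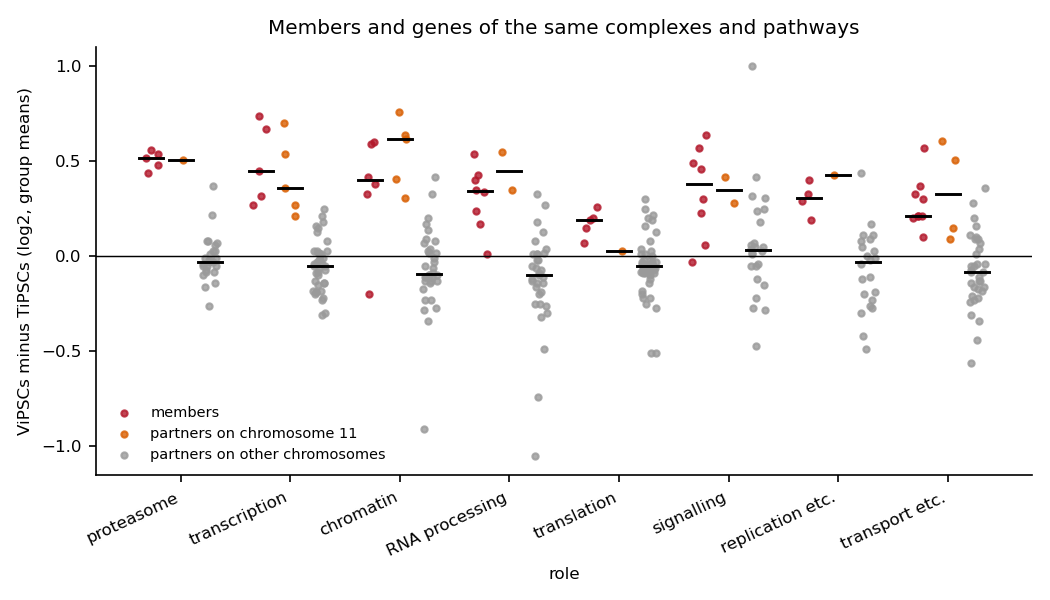
ViPSCs minus TiPSCs difference of group means in log2 units (y axis) by role (x axis), 1 point per gene, with black bars at the medians, for members, listed partners on chromosome 11 and listed partners on other chromosomes. Medians of partners on other chromosomes lie between -0.10 and 0.04, while those of members lie between 0.19 and 0.52.

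In the source cells, with 1 array each and no test, the members were mostly lower than in the pluripotent cells. The median difference from the 9-array mean was -0.60 in TTF and -0.65 in VM. It was -0.55 and -0.64 for all chromosome 11 genes with a mean signal of at least 7, and -0.34 and -0.51 for all genes of that signal, where the members gave -0.69 and -0.65. Members lower in both sources numbered 34 and members higher in both 8. Relative to that mean, the import factor Kpna2 was at -1.77 in TTF and -1.83 in VM, and the export factor Xpo1 at -1.66 and -2.32. Higher by at least 1 in both were Stat5b (2.32 in TTF and 2.51 in VM), Prkar1a (1.57 and 1.66) and Vezf1 (1.05 and 1.13). P4hb was at 1.49 in TTF and -0.39 in VM. Of these 4, Stat5b was the one whose difference between ViPSCs and TiPSCs was below 0. The VM array also carried fibroblast markers (list median 11.62) and endothelial markers (11.02), and the part of those cells in its values was not tested.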

How the data were processed

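Total RNA of 11 samples was measured on 1 array each. Per the submitters' processing notes, the deposited log2 values were made by the authors with RMA, which normalises between arrays. The RMA version and probe annotation are not given in the sources used here. No detection calls were used, and array number limits the precision.

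Of 45101 probe sets, 64 controls, 932 with several gene symbols and 9160 without one were left out. Each of 18193 genes was represented by its brightest probe set, judged by the mean of all 11 arrays, and 9010 genes had more than 1. Chromosome and gene order came from a RefSeq table of build GRCm38.p6, matched by Entrez identifier for 34741 of the 34945 remaining probe sets.

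Group differences were fitted with limma 3.58.1 in R 4.3.3 (lmFit and eBayes, 1 mean per group, 9 pluripotent arrays, two-sided). A gene was called at a Benjamini-Hochberg adjusted p under 0.05 over all 18193 genes. Errors of differences are standard errors of this fit. The script was tested on simulated data. The spread is shared, although the ViPSCs arrays varied least and the mESCs arrays most. The labels give replicate numbers but no pairing. Deviations of same-numbered arrays of different groups had correlations of -0.125 to 0.118, and those of differently numbered arrays -0.140 to 0.169, so no pairing was used.

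The members and lists were chosen with earlier results of these data known. Values of every pluripotent array are given for the largest and smallest difference of each role and for members at or below 0, except that TiPSCs values of Smarce1 and mESCs values of Dhx8 are given as mean and SD. Of the partner lists, at most the 2 largest rises and 2 largest falls among called genes are named per comparison. Psmd11, Polr2a, Nsf, Xpot and others named beyond this were chosen after their values were seen. Alternatives changed the probe-set rule, centring, the minimum signal of 7, the replicate block, the prior, the arrays fitted and each array in turn.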

Additional observations from a re-analysis of the deposited data

How the results depend on the processing

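The members' median ViPSCs minus TiPSCs difference of 0.33 kept its sign throughout. It was 0.26 with the mean of all probe sets, 0.37 with arrays centred on autosomal genes off chromosome 11, and 0.32 to 0.35 with 1 array left out. The median against mESCs (0.25) was 0.19 to 0.38 with 1 array left out, that of TiPSCs minus mESCs (-0.06) was -0.13 to 0.07, and the mESCs rep3 deviation (0.16) was 0.11 to 0.18. The latter was 0.25 after centring and 0.31 against mESCs rep1 and rep2 alone.

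Counts of calls moved far more than these medians. With the 6 arrays of the compared groups fitted alone, ViPSCs against TiPSCs gave 2621 genes (1024 in the fit of 9 arrays), 29 members (8) and 24 partners off chromosome 11 (8). ViPSCs against mESCs then gave 73 genes (390), 0 members (3) and 1 partner (4), and TiPSCs against mESCs 1 gene (115). With genes of a mean of at least 7 alone, 7465 genes were tested. Against TiPSCs 16 of 47 members (34%) were called, and 13.2% of all genes tested. Against mESCs 6 of 47 members (12.8%) and 11 of 244 partners (4.51%) were called, and 6.08% of all genes tested. With the mean of all probe sets, TiPSCs against mESCs gave 65 genes. Centring turned its 53 higher and 62 lower calls into 33 and 74.

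Replicate numbers did not pair the arrays. With the replicate block, ViPSCs against TiPSCs gave 623 genes, 4 members and 3 partners, ViPSCs against mESCs 103 genes, 0 members and 1 partner, and TiPSCs against mESCs 9 genes.

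Leaving out 1 array gave 207 to 1994 genes, 1 to 20 members and 2 to 16 partners for ViPSCs against TiPSCs. The ranges were 22 to 2519, 0 to 16 and 0 to 38 for ViPSCs against mESCs, and 12 to 3038, 0 to 7 and 0 to 34 for TiPSCs against mESCs. The highest count of genes in each of the 3 comparisons came without mESCs rep1. Sos1 turned from -0.47 to 0.10 with the mean of its probe sets. The cause of these moves was not tested, and some alternatives themselves bring a smaller number of genes or arrays. Low and very high signals can limit the size of a difference that is seen, and this was not tested here.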
